A study of Mus musculus with 768 samples.

Results

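The 40 genes described here encode proteins that carry a cell through mitosis: cyclins, mitotic kinases, kinetochore and spindle proteins, cytokinesis proteins and parts of the ubiquitin machinery that ends mitosis. They form a list of named genes and were matched by Ensembl identifier to 40 of the 25700 genes in the count table. All 40 had reads in at least 1 retained well. Single Schwann cells, the glia of peripheral nerve, were taken at P5 (postnatal day 5) from the sciatic nerve of mouse pups and sorted 1 to a well into 2 plates of 384 wells, and their RNA was read by Smart-Seq2, a full-length protocol without molecular identifiers. The pups were on a C57bl/6J background and carried P0Cre, an eYFP reporter that this Cre switches on, and a βAct-DsRed transgene that marks all cells, so every well shares these alleles and the selection for eYFP. P0Cre is active in the Schwann cell lineage, and the sort therefore holds cells with a history of Cre activity rather than cells of 1 differentiation state. Each plate held pooled cells of male and female pups and is 1 biological replicate (n = 2). Wells of 1 plate are not independent samples.

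Wells with at least 1500 detected genes were kept and the 4 corner wells of each plate were left out, which retained 655 wells, 325 in plate 1 and 330 in plate 2. These wells held a median of 593534 reads in plate 1 and 559286 in plate 2, with a range over both of 3306 to 2495101. They were divided by 2 myelin genes that are not among the 40. Wells with under 10 CPM (a gene's reads as a share of all reads assigned to genes in that well, scaled to 1e6) of Ncmap were called immature, other wells with under 30000 CPM of Pmp22 intermediate, and the rest myelinating. This gave 285 immature, 149 intermediate and 221 myelinating wells.

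Many genes of this set are transcribed together in G2, some of them from S phase on, and cyclin B with Cdk1 then drives entry into mitosis. Kinetochores couple chromosomes to the spindle, the spindle checkpoint holds the cell until every chromosome is attached, and the anaphase-promoting complex (APC/C) with its activator Cdc20 then marks cyclin B and securin for destruction. The central spindle and the contractile ring divide the cell. In peripheral nerve, immature Schwann cells proliferate while they sort axons, and cells that form myelin have left the cell cycle.

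The genes share letters in their promoters. RefSeq windows (GRCm38.p6) from 250 bases before to 50 after the transcription start were at hand for 34 of the 40, in 36 windows, since Ect2 and Prc1 have 2 each. Aurkb, Ccna2, Kif20a, Pbk, Smc4 and Tpx2 had none. They were searched on both strands for the CCAAT box and for the cell cycle genes homology region, spelled TTTGAA in its usual form and TTTAAA in its variant form, with overlapping matches counted. The CCAAT box is known to be bound by NF-Y, and the homology region by complexes that repress these genes in resting cells and activate them in G2. The homology letters were in 31 of 36 windows (86.1%), against 27.6% of the 32851 windows of all genes. CCAAT was in 29 (80.6%) against 37.4%, and at 2 or more places in 20 (55.6%) against 11.7%. Both motifs stood together in 27 windows (75%) against 10.7%. For a list of 40 S-phase genes, with 38 windows, the homology letters were in 10 (26.3%), CCAAT in 22 (57.9%), CCAAT at 2 or more places in 14 (36.8%) and both motifs in 6 (15.8%). Nuf2, Nusap1 and Tacc3 had neither motif in the window. A match is a description of the letters and not a tested binding site. Shown here are 6 promoters whose genes the results below turn on: Ccnb2 (chr9:70421505-70421804, minus strand), Cenpa (chr5:30666636-30666935, plus strand) and Cdc20 (chr4:118437294-118437593, minus strand), whose levels had negative correlations with the S-phase genes over cycling wells, Ube2c (chr2:164769679-164769978, plus strand) and Cdk1 (chr10:69352863-69353162, minus strand), the pair that moved most closely together, and Top2a (chr11:99024140-99024439, minus strand), which was also on in S-phase-rich wells. Capitals mark both motifs, and every sequence runs 5′ to 3′ on the gene's strand.
Ccnb2: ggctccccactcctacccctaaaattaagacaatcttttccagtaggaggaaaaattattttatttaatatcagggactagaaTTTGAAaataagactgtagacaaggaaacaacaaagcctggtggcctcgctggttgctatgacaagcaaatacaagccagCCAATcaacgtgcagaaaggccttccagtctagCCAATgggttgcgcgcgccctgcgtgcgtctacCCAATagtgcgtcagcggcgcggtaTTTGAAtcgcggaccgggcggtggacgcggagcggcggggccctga
Cenpa: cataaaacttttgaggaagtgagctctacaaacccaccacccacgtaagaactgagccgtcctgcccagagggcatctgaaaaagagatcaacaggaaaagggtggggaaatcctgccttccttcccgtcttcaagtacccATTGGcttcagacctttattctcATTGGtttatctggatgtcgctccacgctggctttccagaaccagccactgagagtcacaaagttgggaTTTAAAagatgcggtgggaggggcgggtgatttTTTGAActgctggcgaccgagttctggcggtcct
Cdc20: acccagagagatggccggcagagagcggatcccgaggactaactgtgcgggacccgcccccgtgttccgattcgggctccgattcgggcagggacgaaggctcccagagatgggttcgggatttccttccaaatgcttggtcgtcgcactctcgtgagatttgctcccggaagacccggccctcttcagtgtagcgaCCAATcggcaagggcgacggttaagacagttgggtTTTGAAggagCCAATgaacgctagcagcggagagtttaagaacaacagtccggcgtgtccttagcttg
Ube2c: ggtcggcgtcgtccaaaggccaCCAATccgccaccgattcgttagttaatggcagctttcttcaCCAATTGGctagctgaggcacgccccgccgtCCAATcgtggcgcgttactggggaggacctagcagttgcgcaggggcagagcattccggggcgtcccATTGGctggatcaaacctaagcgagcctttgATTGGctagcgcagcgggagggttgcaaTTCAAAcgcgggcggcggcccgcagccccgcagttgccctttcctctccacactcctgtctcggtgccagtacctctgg
Cdk1: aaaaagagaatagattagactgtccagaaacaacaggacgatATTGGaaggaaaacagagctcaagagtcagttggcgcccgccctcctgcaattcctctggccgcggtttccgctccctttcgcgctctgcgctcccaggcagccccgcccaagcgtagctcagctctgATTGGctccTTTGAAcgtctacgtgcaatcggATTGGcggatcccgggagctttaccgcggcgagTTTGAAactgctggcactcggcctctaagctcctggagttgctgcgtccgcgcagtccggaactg
Top2a: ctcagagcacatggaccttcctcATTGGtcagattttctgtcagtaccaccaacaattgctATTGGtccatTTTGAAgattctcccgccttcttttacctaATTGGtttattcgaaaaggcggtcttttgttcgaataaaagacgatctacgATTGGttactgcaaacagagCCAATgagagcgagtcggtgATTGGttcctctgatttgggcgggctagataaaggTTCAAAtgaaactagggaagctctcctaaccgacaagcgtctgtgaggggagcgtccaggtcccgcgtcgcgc

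Each of these windows has a homology match within 30 bases of the start, and 3 have another farther upstream, with positions counted from the start as 0. Ccnb2 has TTTGAA at -167 and 4 and CCAAT boxes at -21, -54 and -87. Cdk1 has TTTGAA at -71 and -15 and 3 CCAAT matches. Top2a has TTTGAA at -179 and its reverse form at -23, with 6 CCAAT matches. Cdc20 has TTTGAA at -18, and Cenpa has it at 16 with TTTAAA at -17. Ube2c has the reverse form at -29 behind 6 CCAAT matches, 2 of which overlap.

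The first question was how the 40 genes were distributed over single cells. A gene was counted as on in a well at 5 or more reads, and a well as cycling when 10 or more of the 40 were on. The rule uses mitosis genes alone, so a cell in S phase with few of them on would not be counted as cycling. Most wells had few: 125 had none on, 370 had 1 or 2, 80 had 3 or 4 and 23 had 5 to 9, while 57 wells had 10 to 39. Just below the limit were 2 wells with 8 genes on and none with 9, and just above it 3 wells with 10 or 11. For description the cycling wells were also divided into 18 with 10 to 24 and 39 with 26 or more on. That limit was set after the values were seen, and while no well had 25 on, other counts in the range were empty too. Plate 1 held 31 cycling wells of 325, or 9.54% (exact Clopper-Pearson 95% interval 6.57 to 13.3), and plate 2 held 26 of 330, or 7.88% (5.21 to 11.3). The average of both plates was 8.71% (SD 1.17, n = 2), and the plates' intervals overlapped. Intervals and limits cover counting error of wells only, and wells of a plate share a pool of pups.

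All 57 cycling wells were in the group with under 10 CPM of Ncmap, a gene of myelinating Schwann cells. They made up 31 of 138 immature wells in plate 1 (22.5%, interval 15.8 to 30.3) and 26 of 147 in plate 2 (17.7%, 11.9 to 24.8). None was found among 370 Ncmap-positive wells (a limit of 3 wells would be 0.811%, and the exact Clopper-Pearson upper bound is 0.992%). With a limit of 5 genes on in place of 10, 80 wells were cycling, and 5 of them, 1 and 4 by plate, were Ncmap-positive. The most mitosis genes on in any Ncmap-positive well was 6, in 1 well. Of the 57, 42 had no Ncmap read and the highest had 5.00 CPM. Their Pmp22 level ran from 229 to 7038 CPM with a median of 1943, far under the limit of 30000. The label held against the marker lists. Of the Schwann cell genes, Egfl8, Gpm6b and Cryab were on in 57 of 57 cycling wells and Sox10 in 55, and 53 wells met the immature list (3 or more of its 10 genes on), with Ncam1 on in 54 and Ngfr in 28. The list of 10 myelin genes was met in 54 of them too, but at a summed mean of 5429 CPM, against 71865 CPM in myelinating wells. None met the fibroblast, endothelial, immune or pericyte and smooth muscle lists, each of 6 genes (for 0 of 57, a limit of 3 wells is 5.26%). The endothelial genes Pecam1 and Cdh5 and the immune gene Ptprc were at 0 reads in cycling wells, as in every other class of wells. Other genes of these lists were on in some cycling wells: Egfl7 in 7, Cd68 in 4, Csf1r and Dcn in 3 each and Pdgfrb and Tagln in 1 each. Col3a1 of the fibroblast list was on in 55, at a mean of 1841 CPM, and in 215 of the 228 other immature wells, at 1629 CPM.

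Cycling wells were 8.70% of the retained wells but held 89.3% of the reads of the 40 genes, 87.9% in plate 1 and 90.6% in plate 2. For 25 of the 40 genes the share was above 90%. The summed level of the 40 ran from 1099 to 38817 CPM in cycling wells, with a median of 13707 in plate 1 and 18112 in plate 2. In the other immature wells the median was 167 CPM, in intermediate wells 68.2 and in myelinating wells 68.0, and the ranges met, since the highest other immature well reached 3696 CPM. Depth differed between these groups. Cycling wells had a median of 588462 reads and 4015 detected genes, other immature wells 448564 and 3070, intermediate wells 517142 and 3523, and myelinating wells 765668 and 3894. With each well thinned to 100000 reads, which left out 22 of the 655, 25.7 genes were on in cycling wells on average (28.3 before thinning), against 1.22 (1.69) in other immature, 0.830 (1.38) in intermediate and 0.689 (1.57) in myelinating wells.

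**Figure D1:**
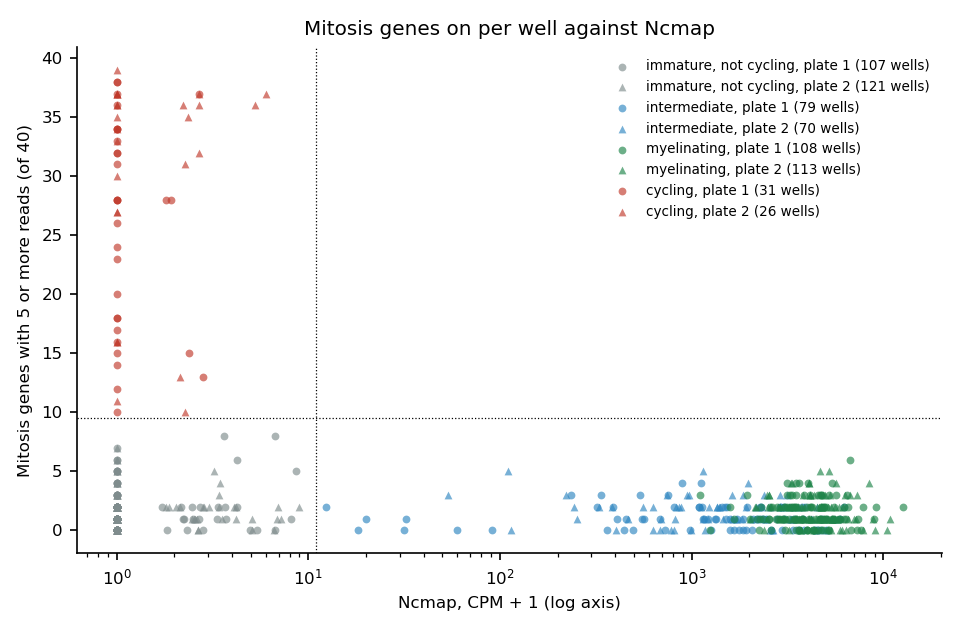
Mitosis genes with 5 or more reads in each of the 655 retained wells (vertical axis, of 40) against Ncmap in CPM + 1 (horizontal, log axis); circles are plate 1, triangles plate 2, and dotted lines mark 10 genes and 10 CPM. The 57 cycling wells all sit to the left of the Ncmap line, and no Ncmap-positive well has more than 6 genes on.

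How widely each gene was on differed within the set. Of the 40, 35 were on in more than 28 of the 57 cycling wells and 5 in fewer: Bub1 and Ttk in 18, Ect2 in 19, and Bub1b and Anln in 23. Birc5 and Smc4 were on in 53, Cks2 in 52, and Cdk1, Cdca8, Racgap1 and Cdca3 in 51. These counts describe wells that the same genes had picked. Outside the cycling wells, 21 of the 40 were on in 10 or fewer of 598 wells, and Kif2c and Ttk were on in none (a limit of 3 wells is 0.502%). A few were on far more often: Kif4 in 184 wells, Smc4 in 146, Ccna2 in 114, Kif20a in 83 and Cdc20 in 59. Kif4 was on in 90 of 221 myelinating wells, more often than in the 48 of 228 other immature wells, and Smc4 in 59 and 67. Myelinating wells were deeper, at a median of 765668 against 448564 reads, and these counts were not taken at equal depth. The gene models bear on these counts. In GENCODE vM21, exons of Kif4 share 832 bases with Pdzd11, those of Kif20a 1271 with Cdc23, those of Prc1 911 with Rccd1, those of Ube2c 592 with Tnnc2, those of Ccna2 510 with Exosc9 and those of Cdc20 53 with Elovl1. The protocol does not keep strand, so reads from shared bases cannot be assigned to either gene with certainty, and the part of this in the counts was not tested. No gene overlaps the exons of Smc4.

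**Figure D2:**
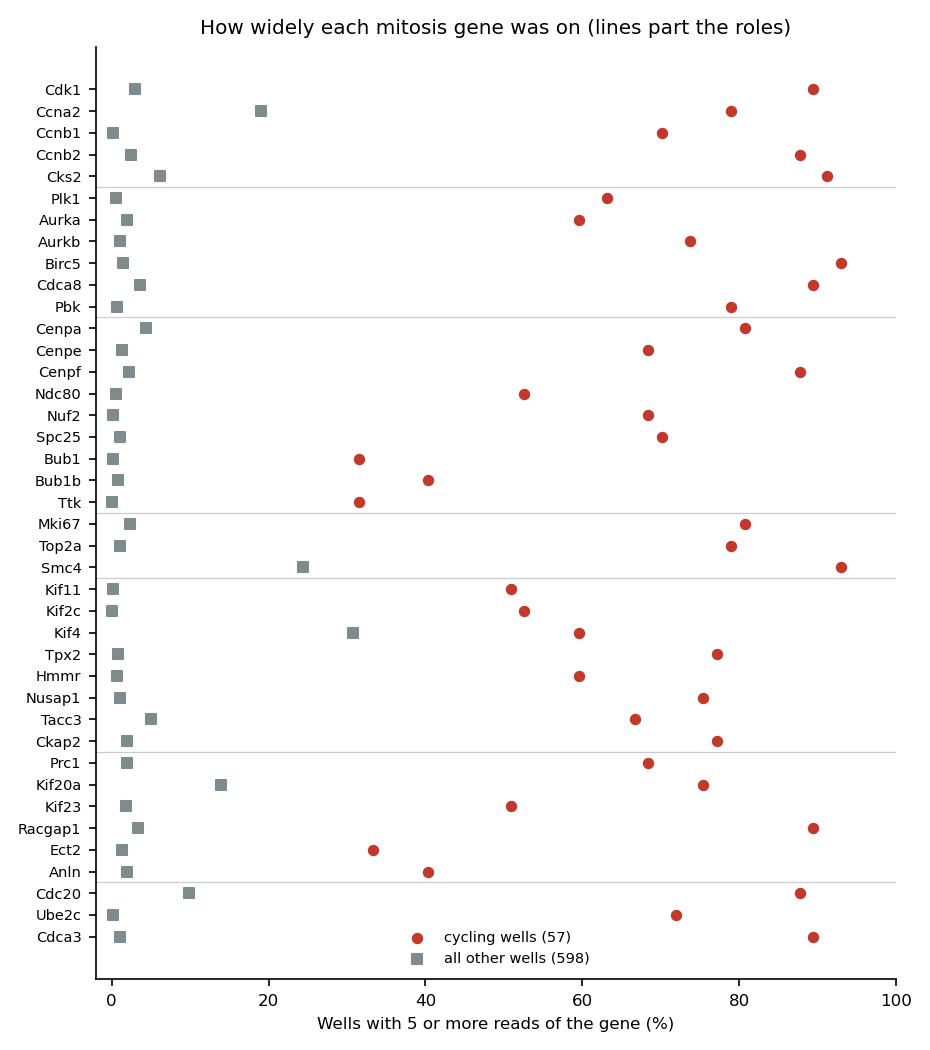
Percent of wells (horizontal axis) in which each of the 40 genes had 5 or more reads, in the 57 cycling wells (circles) and the 598 other wells (squares), with lines between the roles. Bub1 and Ttk lie lowest in cycling wells, at 31.6%, and Kif4, Smc4 and Ccna2 lie highest in the others, at 30.8%, 24.4% and 19.1%.

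The second question was whether the genes differed between states. The deposited reads of each state were added up within each plate, with cycling wells kept in the group that Ncmap and Pmp22 gave them, so that no mitosis gene decided the groups. In these sums fewer expressing cells and less RNA per cell cannot be told apart. The 40 genes together made up 3928 and 3913 CPM of the immature sums of plates 1 and 2, 121 and 170 CPM of the intermediate sums, and 98.7 and 100.4 CPM of the myelinating sums. Between intermediate and immature wells, 28 of the 40 were lower (edgeR quasi-likelihood test, Benjamini-Hochberg adjusted over 13922 genes), where 2.43% of all genes tested were called lower. Between myelinating and immature wells 30 of 40 were lower, where 4.55% of all genes were. No gene of the set was higher in either comparison, by edgeR or DESeq2 or at an unadjusted p under 0.05. The median log2 fold change of the 40 was -6.67 and -6.70, against -0.03 and -0.04 over all genes. These fitted values depend on the prior count where a gene had no read: in the intermediate sums 10 genes were at 0 reads in at least 1 plate, with Bub1, Bub1b and Ttk at 0 in both, and in the myelinating sums 8. As a separate measure, the log2 ratio of CPM between sums was averaged over the plates for each gene, without fitted size factors. Sums of the lower state under 3 reads were set to 3. The medians of this measure were -7.54 and -7.51, and all 40 were lower in both plates in both comparisons. It is not the fitted value corrected for sums without reads. Cycling wells held 89.3% of the reads of the 40 genes. With those wells left out, 33 of the 40 passed the filter on low counts. That choice uses the mitosis genes, so a loss of calls is built in and the values are a description. Of the 33, 25 were lower in intermediate and 27 in myelinating wells, with median log2 fold changes of -1.67 and -2.43. None was called lower in intermediate wells (7 at an unadjusted p under 0.05, where 1.39% of all genes were called) and 1, Cdc20, in myelinating wells (9 unadjusted, where 3.61% of all genes were called). Between myelinating and intermediate wells, whose sums hold no cycling well, that fit again called only Cdc20 lower, where 0.829% of all genes were. The immature sums then held 395 and 218 CPM of the 40.

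**Figure D3:**
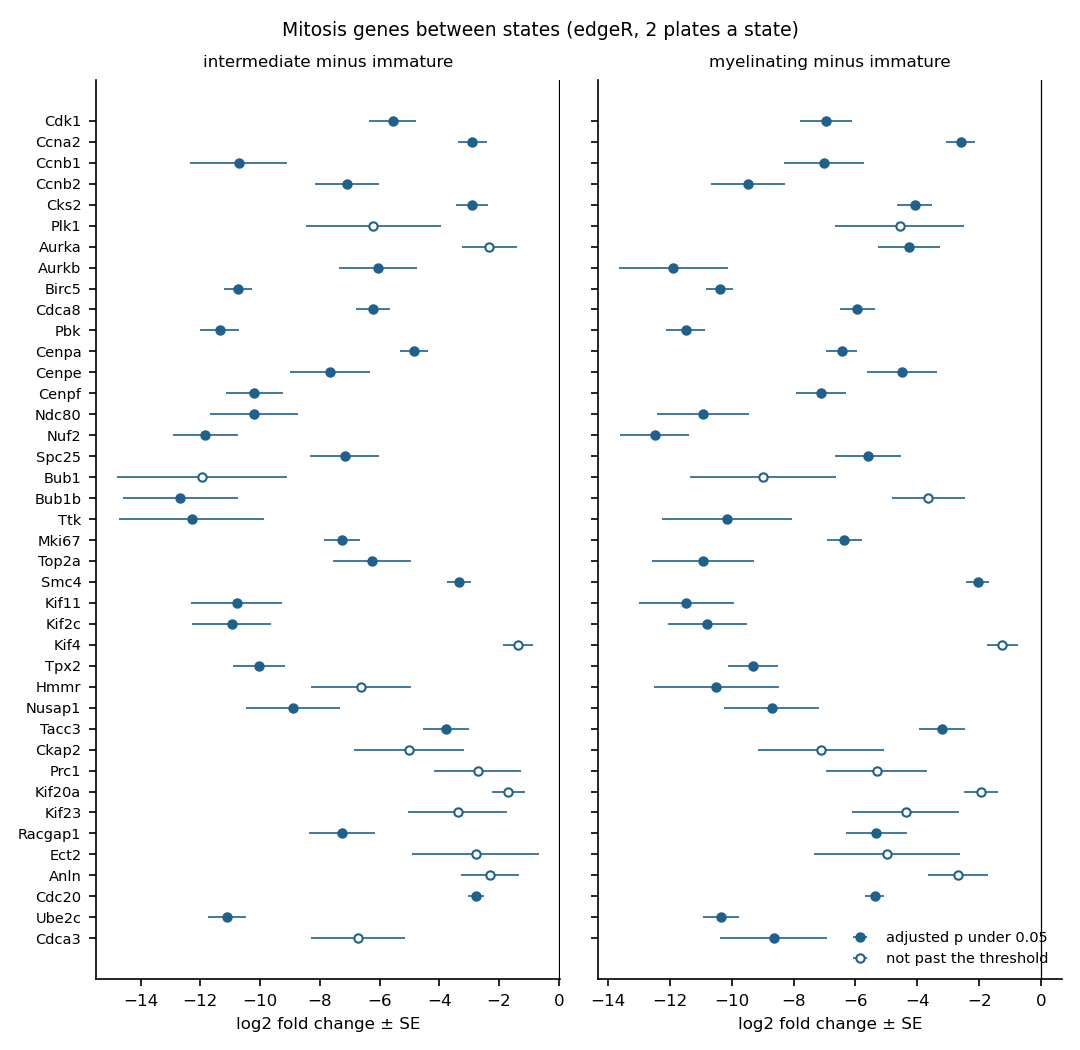
Log2 fold change ± SE of each gene (horizontal axis) for intermediate minus immature wells (left) and myelinating minus immature wells (right), from the edgeR fit over 2 plates a state; filled points passed an adjusted p of 0.05. All 40 points lie left of 0 in both panels, and fitted values below about -9 belong to genes with few or no reads in the lower state.

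Cdk1, the kinase that drives mitotic entry, its cyclins and its subunit Cks2 were all 5 lower in both comparisons, and the medians of their log2 fold changes were -5.56 (intermediate) and -6.94 (myelinating). Cdk1 stood at 296 and 299 CPM in the immature sums, 1.77 and 9.80 CPM in the intermediate sums and 2.5 and 1.20 CPM in the myelinating sums, with a log2 fold change -5.56 ± 0.79 SE, edgeR quasi-likelihood adjusted p = 0.00662 in intermediate, and -6.94 ± 0.84 (edgeR adjusted p = 0.00166) in myelinating wells. Ccnb1, cyclin B1, was at 157 and 144 CPM (immature), 0.0853 and 0.0721 CPM (intermediate) and 0.0406 and 1.77 CPM (myelinating), which is 11596 and 10618 reads against 4 and 3 reads in intermediate wells. It was on in 1 of 598 wells outside the cycling ones. The second B-type cyclin, Ccnb2, went from 226 and 154 CPM in immature wells to 0.171 and 2.40 CPM in intermediate and 0.284 and 0.115 CPM in myelinating wells. It was on in 15 other wells, 12 of them immature, so both B cyclins left few reads outside cycling wells but Ccnb2 somewhat more often. Ccna2, cyclin A, which acts in S phase and G2, was less steep, at 98.9 and 76.5 CPM in the immature sums, 6.31 and 15.1 CPM in the intermediate sums and 12.6 and 9.64 CPM in the myelinating sums (log2 fold changes -2.90 ± 0.48 and -2.60 ± 0.47, edgeR adjusted p = 0.0129 and 0.0120). Cks2 had 76.2 and 140.0 CPM (immature), 10.2 and 16.2 CPM (intermediate) and 6.85 and 2.95 CPM (myelinating). The plates' values did not overlap between immature and the other states for any of the 5, and the intermediate call of Cdk1 was lost with a Pmp22 limit of 15000 CPM. Per kilobase of exon, with all annotated exons of a gene joined, the mean level over cycling wells was highest for Cks2 (647 CPM per kb) and Ccnb2 (505), then Cdk1 (253), Ccnb1 (156) and Ccna2 (80.2). The joined length can exceed that of the expressed transcript, so comparisons of genes on this scale depend on the annotation.

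Of the mitotic kinases and the chromosomal passenger complex, which corrects attachments between chromosomes and spindle, 4 of 6 were lower in intermediate and 5 of 6 in myelinating wells. The passenger subunits Birc5 (survivin) and Cdca8 (borealin), their kinase Aurkb and the mitotic kinase Pbk were lower in both. Birc5 went from 209.7 and 228 CPM in immature wells to 0.0640 and 0.168 CPM in intermediate and 0.142 and 0.103 CPM in myelinating wells, that is 3 and 7 reads in the intermediate sums against 15485 and 16843 in the immature ones (log2 fold change -10.75 ± 0.47 SE, edgeR quasi-likelihood adjusted p = 3.2e-05). Cdca8 was at 117 and 119 CPM (immature), 1.54 and 1.34 CPM (intermediate) and 2.14 and 0.802 CPM (myelinating), and Aurkb at 84.0 and 145 CPM (immature), 0.0640 and 3.10 CPM (intermediate) and 0.0203 and 0.0229 CPM (myelinating). Pbk had 159 and 177 CPM in the immature sums, 0.0213 and 0.0961 CPM in the intermediate sums and 0.0203 and 0.0688 CPM in the myelinating sums. All 4 were strongly read in cycling wells: Birc5 averaged 775 and 1097 CPM in plates 1 and 2, Pbk 587 and 883, Aurkb 328 and 663 and Cdca8 416 and 634. Aurka, the kinase of the spindle poles, had 36.1 and 50.1 CPM in the immature sums, 2.35 and 13.4 CPM in the intermediate sums and 2.66 and 0.745 CPM in the myelinating sums, and passed the test in myelinating wells alone (edgeR adjusted p = 0.0347, against 0.231 in intermediate wells). A Pmp22 limit of either 15000 or 50000 CPM ended that call, and one of 15000 CPM ended the intermediate call of Aurkb. That the 2 changes differ was not shown, since Aurka between myelinating and intermediate wells had an edgeR adjusted p of 0.355. Plk1, polo-like kinase, had 70.5 and 74.9 CPM in immature sums but passed in neither, with plates apart in the lower states: 1 read and 75 reads in intermediate, 459 and 0 reads in myelinating wells.

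Centromere, kinetochore and checkpoint genes were lower for 8 of 9 in intermediate and 7 of 9 in myelinating wells. Cenpa, the histone H3 variant that marks centromeres, went from 228 and 192 CPM in immature wells to 4.05 and 9.32 CPM in intermediate and 1.41 and 2.29 CPM in myelinating wells (log2 fold change -6.45 ± 0.51 SE, edgeR quasi-likelihood adjusted p = 0.000194 for myelinating wells). Cenpf, a large kinetochore protein, had 173 and 149 CPM (immature), 0.192 and 0.0480 CPM (intermediate) and 1.45 and 0.321 CPM (myelinating), and the kinetochore motor Cenpe 99.8 and 71.4 CPM (immature), 0 and 0.793 CPM (intermediate) and 3.36 and 2.45 CPM (myelinating). The 3 measured subunits of the NDC80 complex, which holds microtubule ends, were lower in both comparisons. Ndc80 was at 30.7 and 32.3 CPM (immature), 0.0427 and 0 CPM (intermediate) and 0 and 0.0229 CPM (myelinating), Nuf2 at 63.1 and 42.0 CPM (immature), 0.0213 and 0 CPM (intermediate) and 0 and 0.0115 CPM (myelinating) and Spc25 at 127 and 168 CPM (immature), 0.0640 and 1.83 CPM (intermediate) and 1.73 and 2.95 CPM (myelinating). Nuf2 and Ndc80 had at most 2 reads in any intermediate or myelinating sum, while Spc25 reached 257 reads in the myelinating sum of plate 2. Nuf2 was at least 583-fold lower in intermediate wells of plate 2, where it had 0 reads against the floor of 3. The checkpoint kinases were among the least abundant of the set. Bub1b (BubR1) had 15.2 and 11.1 CPM (immature), 0 and 0 CPM (intermediate) and 0.863 and 0.757 CPM (myelinating), and was lower in intermediate (edgeR adjusted p = 0.0132) and not called in myelinating wells (0.113). Ttk (Mps1) had 10.3 and 10.02 CPM (immature), 0 and 0 CPM (intermediate) and 0.0102 and 0 CPM (myelinating), with an edgeR adjusted p of 0.0368 in intermediate wells, or 0.0600 with the plate as a block, and 0.0268 in myelinating wells. Bub1 had 299 and 869 reads in immature sums, 0 and 0 in intermediate and 2 and 0 in myelinating sums, and passed in neither (edgeR adjusted p = 0.0679 and 0.0640). Other limits ended several of these calls: a Pmp22 limit of 15000 CPM those of Spc25 (both) and Ttk (intermediate), one of 50000 CPM those of Cenpe (both) and Bub1b (intermediate), and an Ncmap limit of 5 CPM that of Nuf2 in intermediate wells. The myelinating call of Cenpe was also lost with DESeq2 and with 1000 detected genes. In cycling wells the levels per kilobase ran from 6.31 CPM per kb for Bub1 and 9.09 for Ttk to 141 for Cenpa and 193 for Spc25.

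The 3 genes of chromosome structure were lower in both comparisons. Mki67, whose product Ki-67 coats mitotic chromosomes and is the usual histological marker of proliferation, went from 95.6 and 67.5 CPM in immature wells to 0.597 and 0.360 CPM in intermediate and 0.589 and 0.940 CPM in myelinating wells. Top2a, which untangles sister DNA, was at 107 and 148 CPM (immature), 2.92 and 0.0480 CPM (intermediate) and 0.0508 and 0.0459 CPM (myelinating). The intermediate sum of plate 1 held 137 Top2a reads and that of plate 2 held 2. Smc4, the ATPase shared by both condensin complexes, changed least of the 3, at 175 and 167 CPM in the immature sums, 20.7 and 9.70 CPM in the intermediate sums and 29.99 and 33.97 CPM in the myelinating sums (log2 fold changes -3.34 ± 0.39 and -2.04 ± 0.37, edgeR adjusted p = 0.00264 and 0.0115). With cycling wells left out, Smc4 stood at 48.3 and 39.9 CPM in immature sums, beside its myelinating values of a similar size. With a Pmp22 limit of 15000 CPM, both calls of Smc4 and the intermediate call of Top2a were lost.

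Among spindle motors and microtubule proteins 5 of 8 were lower in intermediate and 6 of 8 in myelinating wells. The motors Kif11 (Eg5), which pushes spindle poles apart, and Kif2c, which takes microtubule ends apart, were on in 1 and 0 of the 598 wells outside the cycling ones. Kif11 had 33.96 and 16.8 CPM (immature), 0.0213 and 0 CPM (intermediate) and 0.0102 and 0 CPM (myelinating), Kif2c 18.8 and 38.0 CPM (immature), 0.0213 and 0 CPM (intermediate) and 0.0102 and 0.0115 CPM (myelinating) and the Aurka activator Tpx2 43.9 and 39.6 CPM (immature), 0.0213 and 0.0480 CPM (intermediate) and 0.0508 and 0.0459 CPM (myelinating). Each of the 3 had at most 5 reads in any intermediate or myelinating sum. The microtubule-binding proteins Nusap1, Tacc3 and Hmmr were less uniform. Nusap1 went from 42.2 and 44.6 CPM in immature wells to 0.0213 and 0.144 CPM in intermediate and 0.152 and 0 CPM in myelinating wells. Tacc3 kept more reads, at 74.0 and 63.7 CPM in the immature sums, 2.79 and 6.46 CPM in the intermediate sums and 2.19 and 9.45 CPM in the myelinating sums. A Pmp22 limit of 15000 CPM ended both calls of Tacc3 and the intermediate call of Nusap1. Hmmr had 49.2 and 36.4 CPM (immature), 0.768 and 0 CPM (intermediate) and 0.0406 and 0 CPM (myelinating), with an edgeR adjusted p of 0.0676 in intermediate wells, or 0.0257 with the plate as a block, and 0.0150 in myelinating wells. Ckap2 passed in neither (edgeR adjusted p = 0.198 and 0.0701, the second 0.0151 with the plate as a block), at 136 and 1 reads in intermediate sums. The chromokinesin Kif4 had 22.8 and 33.1 CPM in immature sums and 9.85, 9.97, 9.88 and 8.22 CPM in the other 4, and was not called (edgeR adjusted p = 0.202 and 0.176). Of its reads, 48.6% lay in cycling wells, the lowest share of the 40.

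Of the genes of the central spindle and cytokinesis 1 of 6 was lower in each comparison. It was Racgap1, a subunit of centralspindlin, at 88.0 and 53.5 CPM in the immature sums, 0.768 and 0.0480 CPM in the intermediate sums and 1.23 and 1.48 CPM in the myelinating sums (log2 fold changes -7.26 ± 1.10 and -5.32 ± 0.99, edgeR adjusted p = 0.00884 and 0.0129). Its partner Kif23 had 37.8 and 21.1 CPM in immature, 3.73 and 1.321 in intermediate and 0.0102 and 2.18 in myelinating sums. Prc1, which bundles the central spindle, had 381 and 121 reads in intermediate and 1 and 136 in myelinating sums. In most of these genes the plates lay far apart, and the standard errors of the 5 not called ran from 0.55 (Kif20a) to 2.13 (Ect2) in intermediate wells. Kif20a, a motor of the central spindle, had log2 fold changes of -1.69 and -1.94, Ect2, which acts at the cleavage furrow, -2.79 and -4.99, and Anln, a scaffold of the contractile ring, -2.30 and -2.68.

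Of the genes of ubiquitin-mediated mitotic exit 2 of 3 were lower in intermediate and 3 of 3 in myelinating wells. Ube2c, the E2 enzyme of the APC/C, went from 222 and 337 CPM in immature wells to 0.0853 and 0.144 CPM in intermediate and 0.0812 and 0.252 CPM in myelinating wells, that is 4 and 6 reads in intermediate against 16412 and 24891 reads in immature sums (log2 fold change -11.11 ± 0.62 SE, edgeR quasi-likelihood adjusted p = 9.57e-05). Cdca3, which helps to remove the mitotic inhibitor Wee1, was at 169.8 and 163 CPM (immature), 0.0427 and 2.88 CPM (intermediate) and 0.0305 and 0.619 CPM (myelinating). It passed in myelinating wells (edgeR adjusted p = 0.0179) and, with 0.0528, not in intermediate wells, where a block on the plate gave 0.0117. Cdc20, which activates the APC/C at anaphase, was at 307 and 239 CPM in the immature sums, 29.4 and 43.5 CPM in the intermediate sums and 5.63 and 4.47 CPM in the myelinating sums. Cdc20 was the only one of the 40 called between myelinating and intermediate wells, at a log2 fold change -2.61 ± 0.28 SE, edgeR quasi-likelihood adjusted p = 0.00444, where 0.898% of all genes were called lower. That call was lost with a Pmp22 limit of 15000 CPM, at a log2 fold change of -1.63. None was called higher in that comparison by edgeR (5 at an unadjusted p under 0.05, 3 by DESeq2, where edgeR called 1.06% of all genes higher). Without cycling wells, Cdc20 stood at 50.6 and 29.2 CPM in immature sums, which overlaps its intermediate values, and was lower in myelinating than in immature wells by a log2 fold change of -2.60 ± 0.47 (SE, edgeR adjusted p = 0.0109). It was on in 22 of 228 other immature, 23 of 149 intermediate and 14 of 221 myelinating wells. Per kilobase of exon its mean over cycling wells was 563 CPM per kb, second to Cks2, and that of Ube2c was 468.

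Other genes of the same pathway, from lists chosen with earlier results of these data known, gave the following counts with the edgeR test. Over all 13922 genes tested, 2.43% were called lower in intermediate and 4.55% in myelinating wells, each against immature wells. Between myelinating and intermediate wells 0.898% of all genes were called lower and 1.06% higher. Of 59 further mitosis genes, 25 were lower in intermediate and 26 in myelinating wells, with median log2 fold changes of -4.94 and -4.56. The 3 with the highest mean CPM in cycling wells encode tubulins and a tubulin-binding protein and were on in 56 or 57 of the 57. Tuba1b averaged 3657 and 4179 CPM in cycling wells and 929.8 and 951 CPM in other immature wells, and was lower in both comparisons (log2 fold changes -1.01 and -0.56, edgeR adjusted p = 0.00193 and 0.0170). Stmn1 was lower in intermediate wells (log2 fold change -1.18, edgeR adjusted p = 0.00320), and Tubb5 had edgeR adjusted p-values of 0.266 and 0.0799. The plates lay apart for Tubb5 in intermediate wells, at means of 4806 and 1135 CPM. Among those wells, the highest summed level of the 59 genes was 196532 CPM in plate 1 and 9266 CPM in plate 2. Whether the highest well set the Tubb5 result was not tested. Of 25 regulators of the G2 to M step, 2 were lower in each comparison: Foxm1, a transcription factor of these genes, and Cdc25c in intermediate, and Cdc25b and Cdc25c in myelinating wells, where Cdc25 phosphatases activate Cdk1. The median log2 fold changes were -1.50 and -1.63. Rbbp4, Fbxo5 and Fzr1, the 3 with the highest mean CPM, were not called. Rbbp4 was on in 54 cycling wells, at a mean of 361 and 369.7 CPM against 286 and 265 CPM in other immature wells. Fbxo5, an inhibitor of the APC/C, was on in 33, at 199.98 and 222 against 4.79 and 1.66 CPM, and Fzr1, an activator of it, in 36, at 122 and 223 against 70.9 and 42.6 CPM. Of the 15 genes of the APC/C itself none was called by edgeR in any comparison (2 and 3 lower at an unadjusted p under 0.05 in intermediate and myelinating wells, and 2 and 1 by DESeq2; between myelinating and intermediate wells 2 lower unadjusted and 0 by DESeq2), with median log2 fold changes of -0.24 and -0.41. Its Anapc5, Anapc11 and Anapc16 were read in every state. In cycling against myelinating wells, Anapc5 averaged 432 and 404 against 193 and 194 CPM, Anapc11 218 and 198 against 85.1 and 86.5 CPM and Anapc16 192 and 215 against 166 and 147 CPM. The sum of the 15 averaged 1733 CPM in cycling, 1217 in other immature, 1007 in intermediate and 836 in myelinating wells. Its activator Cdc20 and its E2 Ube2c, given above, were lower in both. Of 40 S-phase genes 11 were lower in intermediate and 15 in myelinating wells, with medians of -3.43 and -3.47. Pcna, the replication clamp, and Tk1, thymidine kinase, were lower in both, and Rrm2, a subunit of ribonucleotide reductase, in myelinating wells (edgeR adjusted p = 0.0176). Of 67 clustered histone genes, near-identical copies whose reads cannot be assigned with certainty, 55 were tested, of which 3 and 5 were lower and 1 was higher in each. Tk1 was also the 1 gene of these lists called higher between myelinating and intermediate wells, at means of 0.567 and 1.29 CPM against 0.0196 and 0.123 CPM per well. That call rests on few reads, 62 and 78 in the myelinating sums against 1 and 4 in the intermediate sums.

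The third question was how the 40 genes varied among cycling cells. Over the 57 cycling wells, which come from 2 plates, the Spearman correlation of log2(CPM + 1) had a median of 0.352 over the 780 pairs and was negative for 25. It was 0.314 over the 31 wells of plate 1 and 0.342 over the 26 of plate 2. Because wells were picked for having 10 or more genes on, part of this is fixed by the choice, and among the 39 wells with 26 or more on the median was 0.168, with 170 negative pairs. The median was 0.337 over pairs of 1 role and 0.352 over pairs of different roles. The number of genes on had a rho of 0.00266 with the reads of a well and of 0.509 with its detected genes.

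The closest pair was Cdk1 and Ube2c (rho 0.806, and 0.735 and 0.762 within plates 1 and 2), followed by Ccnb1 and Cenpf (0.756), Spc25 and Top2a (0.742) and Ccnb1 and Cenpe (0.740). Among the 39 wells with 26 or more on, the closest pairs drew on a small circle of genes: Ccnb1 with Cdc20 (0.754), Cenpa (0.725) and Cenpf (0.722), and Cdc20 with Ccnb2 (0.721) and Cenpa (0.717). The lowest pairs held Ttk, with Ccnb2 (-0.227 over 57 wells) and with Kif20a (-0.546 over 39), and Ttk was on in 18 wells.

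The cycling wells also differed from each other in their S-phase genes. The summed level of the 40 S-phase genes, none of which is among the mitosis genes, ran from 0 to 12271 CPM in cycling wells and averaged 4815 CPM, against 1101 CPM in other immature, 393 in intermediate and 284 in myelinating wells. The highest S-phase sum in other immature wells was 8969 CPM in plate 1 and 8871 CPM in plate 2. Wells not counted as cycling thus included some rich in S-phase genes. The rho of the S-phase sum with the summed mitosis level was -0.276 over the 57 wells (-0.285 and -0.266 within plates) and -0.755 over the 39 wells with 26 or more on. Over the same 39 wells the sum of 67 clustered histone genes had rho -0.420 with the mitosis level, while over all 57 it was -0.00486 (0.148 and -0.216 within plates 1 and 2). Single genes lay on both sides. Over the 57 wells, rho with the S-phase sum was -0.729 for Cenpa (-0.739 and -0.637 within plates), -0.698 for Ccnb2, -0.506 for Cenpf, -0.482 for Cdc20 and -0.341 for Ccnb1, and it was positive for 17 of the 40, up to 0.340 for Bub1, 0.340 for Top2a, 0.304 for Ttk, 0.273 for Pbk and 0.245 for Spc25. Cdk1 (0.160), Ccna2 (0.160) and Mki67 (0.0927) lay between. Within the 39 wells, 29 of the 40 were negative, led by Cenpa (-0.866), Cdc20 (-0.797) and Ccnb1 (-0.768). All values in CPM share the well's total, so the level of 1 group enters that of the others, and wells share their plate.

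**Figure D4:**
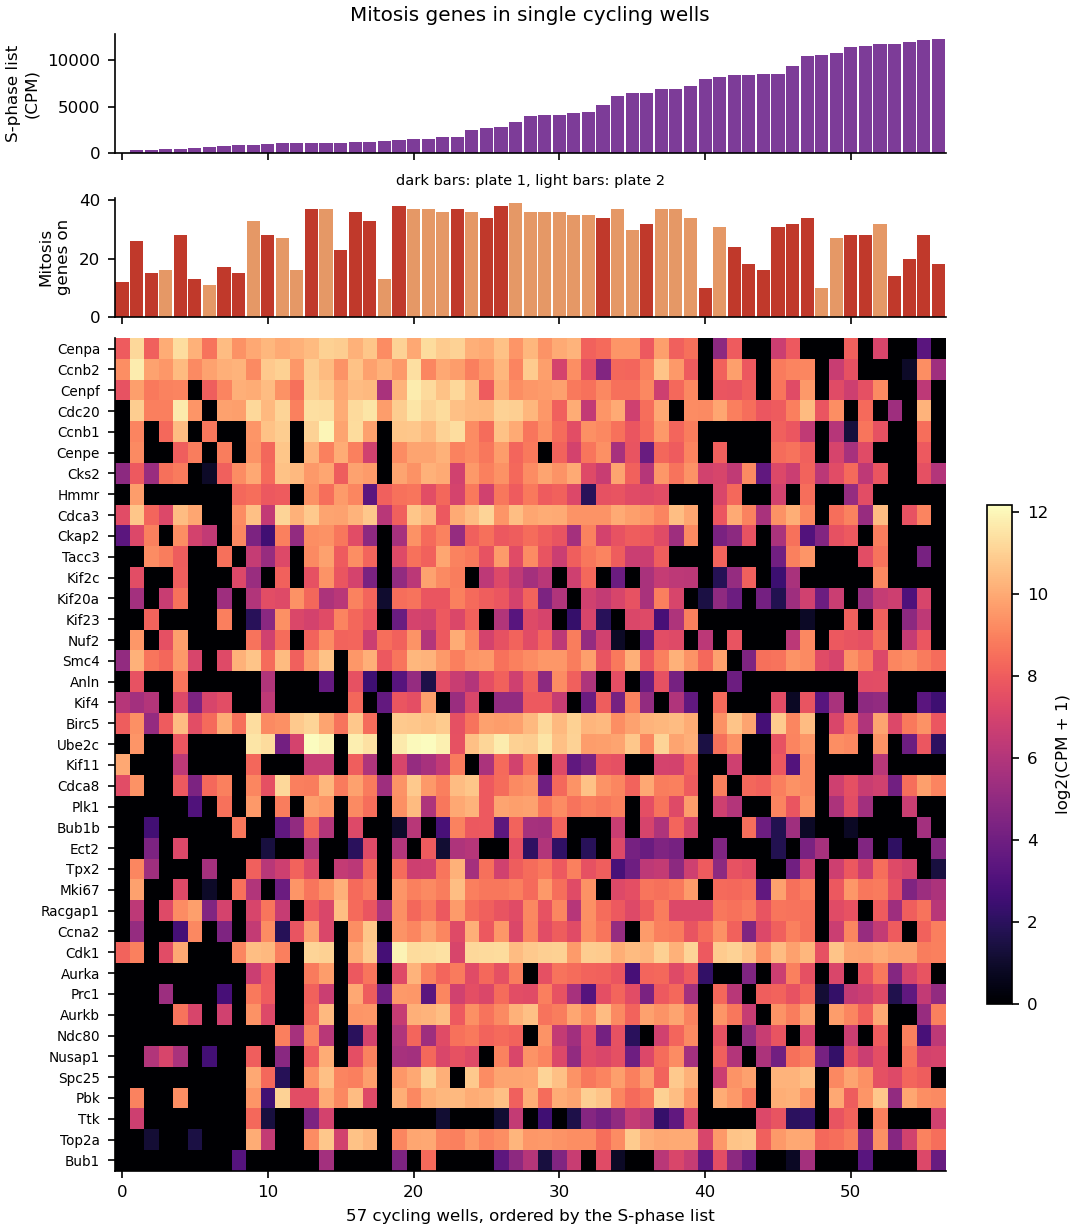
Level of the 40 genes (rows, log2(CPM + 1) by colour, ordered by their rho with the S-phase list) in the 57 cycling wells (columns, ordered by the summed CPM of 40 S-phase genes, top bars), with the number of mitosis genes on in the middle bars. Cenpa and Ccnb2, the top rows, are bright on the left and dark in many wells on the right, while Cdk1 and Top2a stay bright to the right.

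The 18 wells with 10 to 24 genes on were then described apart. Their S-phase sums left a gap: 10 wells (6 and 4 by plate) were at 0 to 1274 CPM and 8 wells (7 and 1) at 7940 to 12271 CPM. A split inside that gap, at 4000 CPM, was chosen after the values were seen and is given without a test. They had a median of 15 and 17 mitosis genes on. In the 10 wells low in S-phase genes, Cenpa and Ccnb2 were on in all 10, Cenpf and Birc5 in 9 each and Cdca3 in 8, while Cdk1 was on in 4 and Top2a in 1. In the 8 wells high in S-phase genes, Cdk1 and Top2a were on in all 8 and Racgap1 in 7, while Cenpa was on in 1, Cenpf in 2, Ccnb2 in 3, Cdca3 in 4, Birc5 in 5 and Ccnb1, Cenpe and Tacc3 in none. Cdc20 and Smc4 did not divide the wells in this way, each being on in 8 of the 10 and 6 of the 8. Median levels were 884 against 0 CPM for Cenpa, 831 against 0.442 CPM for Ccnb2, 0 against 781 CPM for Cdk1 and 0 against 301 CPM for Top2a. In the textbook order of the cycle, Cdk1 and Top2a are transcribed from S phase on, and Cenpa and Ccnb2 peak in G2 and M. Ccnb1 and Ube2c were on in few of the 18, at 3 wells each, and in 37 and 38 of the 39 wells with 26 or more. Anln was on in none of the 18 and in 23 of the 39. Median depth was 614916 and 665137 reads per well in the 10 and the 8, and the median of detected genes was 2872 and 4006.

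**Figure D5:**
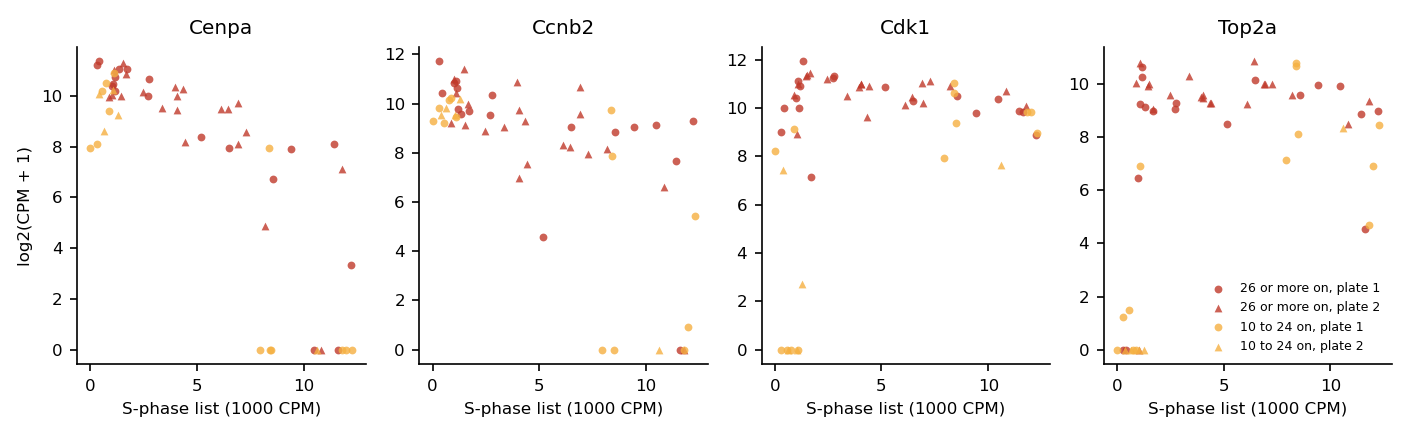
Level of Cenpa, Ccnb2, Cdk1 and Top2a (vertical axes, log2(CPM + 1)) against the summed S-phase list (horizontal axis, in units of 1000 CPM) in the 57 cycling wells; red wells have 26 or more mitosis genes on and yellow wells 10 to 24, circles are plate 1 and triangles plate 2. Cenpa falls from left to right and has under 5 reads in 7 of the 8 yellow wells on the right, where Cdk1 and Top2a are on in all 8.

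Outside the 40, the genes whose level over all 655 retained wells was most like their sum were named by the Pearson correlation of log2(CPM + 1), among 3558 genes with a mean of 50 CPM or more in cycling wells. Wells of a plate share its animals, and all values share the well's total. They were Spc24 (r = 0.582), Pclaf (0.567), Pimreg (0.553), Kif22 (0.553), Ckap2l (0.539), Tubb6 (0.535), Sgo1 (0.530), Knstrn (0.524), Cit (0.519) and Knl1 (0.518). Of these, 8 were in the list of further mitosis genes, and Tubb6, a tubulin, and Knstrn, a spindle protein, were in no list. Sgo1, which protects sister chromatid cohesion, was on in 34 cycling wells and 1 other well, whereas Tubb6 was on in 54 and 46. Spc24, the partner of Spc25 in the NDC80 complex, was on in 48 cycling and 13 of 598 other wells.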

How the data were processed

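Single cells from 2 plates, each a separate pool of pups and 1 replicate, were measured by Smart-Seq2. Per the submitters' processing notes, the authors used bcl2fastq, STAR 2.6.1c, featureCounts and GRCm38.p5, and deposited raw read counts per gene and well, without molecular identifiers or normalization. The study's methods give another STAR version and name a human build, while the gene identifiers are those of mouse. Gene names and exons came from GENCODE vM21 (25587 of 25700 identifiers matched; the rest held 0.0916% of reads). Wells needed 1500 detected genes, and corner wells were left out. No doublet caller was run, and each well was sorted to hold 1 cell.

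Counts were summed per plate and state and tested with edgeR 4.0.16 (R 4.3.3; TMM, filterByExpr, quasi-likelihood F test, 6 sums, 13922 genes, Benjamini-Hochberg threshold 0.05). The residual degrees of freedom were 3, so p-values measure the spread between 2 plates. The SE given with an edgeR log2 fold change is its absolute value divided by the square root of the F statistic. It was derived from the test and is not an SE reported by the fit. Same-numbered sums come from the same pool and therefore pair, and their deviations correlated at r = 0.174, 0.149 and 0.104 over 1924 genes. Python 3.11.15, numpy 2.4.6, scipy 1.17.1, pandas 2.3.3 and matplotlib 3.10.9 did the rest, with log2(CPM + 1) for correlations. Alternatives were DESeq2 1.42.0, other size factors, no filter, the plate as a block, wells thinned to 100000 reads, other limits on genes, Ncmap and Pmp22, cycling wells left out, and each plate left out.

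The 40 genes and all lists (further mitosis genes, G2 to M regulators, APC/C, S phase, histones and cell type markers) were chosen with earlier results of these data known. Named in the text were the 40 by role, with every sum for those called, the 3 genes of each pathway list with the highest mean CPM in cycling wells and the 10 genes most alike. Cdc25 genes and Foxm1, called in a list, and the genes of the 18 wells with 10 to 24 on were named after their values were seen.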

Additional observations from a re-analysis of the deposited data

Results flagged for a closer look

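Of the 113 wells left out, 1 had 10 or more of the mitosis genes on. This well of plate 1 (row G, column 8) had 1399 detected genes, under the minimum of 1500, and 536987 reads. It had 12 of the 40 genes on, at a summed 9073 CPM, with 3.72 CPM of Ncmap and 5.59 CPM of Pmp22. It entered no comparison.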

How the results depend on the processing

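Leaving out the cycling wells lowered the mitosis genes called lower to 0 in intermediate and 1 in myelinating wells. The cycling wells had been picked by the same genes. The log2 fold change was then positive for 8 of the 33 genes tested in intermediate and 6 in myelinating wells. Of these, the ones called lower in the main fit were Cks2 (0.84) and Cdc20 (0.0073) in intermediate and Aurka (2.31) in myelinating wells. The summed immature level was then 306 CPM, and with thinned wells 3572 CPM (myelinating 101 CPM). With a limit of 5 genes on, 12.2% of wells were cycling, including 5 Ncmap-positive wells. Between myelinating and intermediate wells, the mitosis genes called lower were 3 (DESeq2), 5 (no filter), 2 (thinned), 2 (Ncmap limit of 5 CPM) and 0 (Pmp22 limit of 15000 CPM), and those called higher were 3 (DESeq2), 5 (no filter) and 1 each (thinned, 2500 detected genes, Ncmap limit of 50 CPM, Pmp22 limit of 15000 CPM). Over all genes, those called lower were 988 (DESeq2), 557 (no filter), 190 (cycling wells left out) and 219 (Pmp22 limit of 15000 CPM) in intermediate against immature wells, 1467 (DESeq2) and 396 (Pmp22 limit of 15000 CPM) in myelinating against immature wells, and 698 (DESeq2), 320 (no filter), 198 (replicate block) and 225 (thinned) in myelinating against intermediate wells. The cause was not tested. With the plate as a replicate block 29, 31 and 1 mitosis genes were lower in the 3 comparisons, and the calls that changed, for Ttk, Hmmr, Cdca3 and Ckap2, stand with those genes. Of 59 calls of single genes, a Pmp22 limit of 15000 CPM lost 13 and one of 50000 CPM lost 4, and DESeq2, 1000 detected genes, an Ncmap limit of 5 CPM and the block lost 1 each, all named with their genes. With 1 plate left out there is no test, and over these fits the share of cycling wells ranged from 7.88% to 9.54%, and the summed level from 3913 to 3928 CPM (immature), 121 to 169.6 CPM (intermediate) and 98.7 to 100.4 CPM (myelinating).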
